A study of Mus musculus with 15 samples.

Results

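Proliferins are secreted glycoproteins of the mouse Prl2c genes, a branch of the prolactin family. They were first known from growth-stimulated mouse fibroblasts in culture and are made in quantity by trophoblast giant cells of the placenta. They bind the mannose 6-phosphate receptor Igf2r, and they draw endothelial cells into migration and new vessel growth. Transcription of the genes is known to answer to serum, growth factors, AP-1 factors and glucocorticoids. The Prl2c paralogues lie together on chromosome 13, and their transcripts are so alike that 1 probe can bind several of them.

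Described here are 3 of these genes, Prl2c2, Prl2c3 and Prl2c5, of 16895 genes that the array's probes could be matched to. Their probes are those whose gene name, description symbol or RefSeq accession leads to one of the 3. The older symbols that the rule names are Plf, Plf2, Mrpplf3 and Mrpplf4. The rule found 5 probes among the 41174 of the array, and all 5 passed the filter on dim probes that left 38520 for testing. The genes were selected on their high log2 ratios in TAF-el4 and TAF-tib48 against TAF-tib6 and NSF in these same arrays. The values of those comparisons are therefore given as a description, with no test.

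RNA of mouse fibroblasts from 5 sources was hybridised to Agilent 2-colour arrays, 3 arrays per source and 15 in all. Per the labels, the sensitive sources are NSF and TAF-tib6, and the resistant ones are TAF-tib42, TAF-tib48 and TAF-el4. The series title speaks of fibroblasts associated with tumours refractory to anti-VEGF treatment, from which TAF is read as tumour-associated fibroblast; the sources used here explain neither NSF nor the tib names, and give no genotype, age or passage. Every array carried fibroblast RNA in Cy5 and Stratagene Universal Mouse Reference RNA, a commercial pool, in Cy3, with no dye swap, so each value is a log2 ratio of fibroblast to reference signal. Nothing says that replicate arrays hold RNA of separate cultures or animals, so p-values here rest on variation among arrays that may be only technical.

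A probe named A_52_P619248 lists the accession of Prl2c5 alone and is the only one of the 5 that lists a single gene. The files place its 60 bases at chrUn_random:58787314-58787255, on an unplaced contig; which build this is, the sources used here do not say. A_52_P511450, at chrUn_random:58787411-58787352, is headed by Prl2c5 but lists 4 accessions, those of Prl2c5, Prl2c3, Prl2c2 and NM_011954. The other 3 probes are named Plf2 in the files, which is Prl2c3, and each lists Prl2c3, Prl2c2 and NM_011954. They are A_52_P84814 at chrUn_random:8593147-8593098, A_51_P312779 at chrUn_random:8593344-8593285 and A_51_P312780 at chrUn_random:8593443-8593384. No probe belongs to Prl2c2 alone, so the levels of Prl2c2 and Prl2c3 cannot be told apart. NM_011954 was not matched to a gene here, so signal from a further paralogue cannot be set apart at the 4 probes that list it.

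The promoters of 2 of the genes are shown as a description, from RefSeq on GRCm38.p6. They are the 250 bases before the start of Prl2c3 (chr13:12800080-12800329, minus strand) and of Prl2c5 (chr13:13182466-13182715, plus strand). Prl2c2 was not matched. Capitals mark a TATA box (TATATAA) and an AP-1 motif (TGANTCA), the site of Fos and Jun dimers.
Prl2c3: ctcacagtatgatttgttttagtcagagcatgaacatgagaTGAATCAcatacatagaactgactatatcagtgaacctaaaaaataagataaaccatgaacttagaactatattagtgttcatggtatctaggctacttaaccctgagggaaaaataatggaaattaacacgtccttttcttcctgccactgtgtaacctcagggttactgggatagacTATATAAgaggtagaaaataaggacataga
Prl2c5: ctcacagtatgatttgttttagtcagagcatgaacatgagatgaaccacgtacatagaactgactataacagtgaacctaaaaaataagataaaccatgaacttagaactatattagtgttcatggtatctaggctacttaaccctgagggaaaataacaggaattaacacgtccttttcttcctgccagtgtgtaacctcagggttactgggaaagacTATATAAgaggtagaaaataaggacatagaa

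Over windows of 300 bases, which also hold the first 50 bases of the transcript, the pair had 287 identical bases of 299 aligned, with 12 substitutions and 1 gap base. The TATA box began 30 bases before the start of Prl2c3 and 31 before that of Prl2c5, and 3.24% of 32851 promoters of the same length held it. The AP-1 motif began 209 bases before the start of Prl2c3 and was held by 7.81% of promoters; its letters are not in the Prl2c5 window. The letters TGTTCT, an element of glucocorticoid receptor sites, held by 19% of promoters, are in neither window. All 3 motifs were searched on both strands, they do not overlap one another, and a match is a description of the letters only.

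The proliferin signal ran in one order at every probe. It was highest in TAF-el4 and TAF-tib48, intermediate in NSF and TAF-tib6, and lowest in TAF-tib42, which is a resistant source like the first pair. Averaged over the 5 probes, the log2 ratio to the reference was 3.49 ± 0.107 in TAF-el4 (SD, n = 3) and 3.26 ± 0.432 in TAF-tib48. It was 1.21 ± 0.093 in NSF, 1.08 ± 0.0836 in TAF-tib6 and -0.83 ± 0.0248 in TAF-tib42. The mean of NSF replicate 1 lacks A_51_P312779, whose spot was left out as an outlier. The TAF-tib42 mean includes A_51_P312780, which was not well above background there. In bulk RNA, fewer proliferin-expressing cells and less RNA per cell cannot be told apart.

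The Prl2c5 probe A_52_P619248 had log2 ratios of 4.13, 4.16 and 4.22 on the TAF-el4 arrays and of 3.99, 4.21 and 3.36 on those of TAF-tib48. NSF gave 1.48, 1.65 and 1.53, and TAF-tib6 gave 1.30, 1.62 and 1.44. The TAF-tib42 arrays read -1.35, -1.38 and -1.44. The first pair of sources overlapped each other, NSF and TAF-tib6 overlapped each other, and every TAF-tib42 array lay below all of the rest.

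At A_52_P511450, which lists Prl2c5, Prl2c3 and Prl2c2, TAF-el4 gave 3.56, 3.50 and 3.58 and TAF-tib48 gave 3.32, 3.59 and 2.88. NSF stood at 1.30, 1.28 and 1.42, and TAF-tib6 at 1.21, 1.27 and 1.23. TAF-tib42 stood at -0.54, -0.69 and -0.63. NSF and TAF-tib6 did not overlap here, although they were close.

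Of the probes that list Prl2c3 and Prl2c2, A_52_P84814 had ratios of 3.92, 3.97 and 4.21 in TAF-el4 and of 4.0, 4.2 and 3.38 in TAF-tib48. Its NSF values were 1.42, 1.53 and 1.67, and its TAF-tib6 values 1.38, 1.36 and 1.31. Its TAF-tib42 values were -1.2, -1.0 and -1.11. The order was thus that of the Prl2c5 probe.

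A_51_P312779 gave 3.05, 2.89 and 3.31 in TAF-el4 and 2.84, 3.08 and 2.15 in TAF-tib48. In NSF it gave 0.91 and 1.06 on replicates 2 and 3; the spot of replicate 1 carried the scanner's outlier flag and was left out, so NSF has n = 2 in the fit of this probe. TAF-tib6 gave 0.82, 0.91 and 0.87, and TAF-tib42 gave -0.50, -0.51 and -0.58. Again TAF-tib42 was the lowest, and replicate 3 was the lowest array of TAF-tib48.

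The dimmest probe, A_51_P312780, gave 2.65, 2.54 and 2.75 in TAF-el4 and 2.81, 2.98 and 2.12 in TAF-tib48. NSF was spread from 0.15 on replicate 2, where Cy5 was not well above background, to 0.73 and 0.75 on replicates 1 and 3. TAF-tib6 gave 0.39, 0.74 and 0.43, and TAF-tib42 gave -0.41, -0.57 and -0.48. All 3 TAF-tib42 spots were not well above background, so their ratios are bounds, and no spot of any of the 5 probes was saturated.

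**Figure D1:**
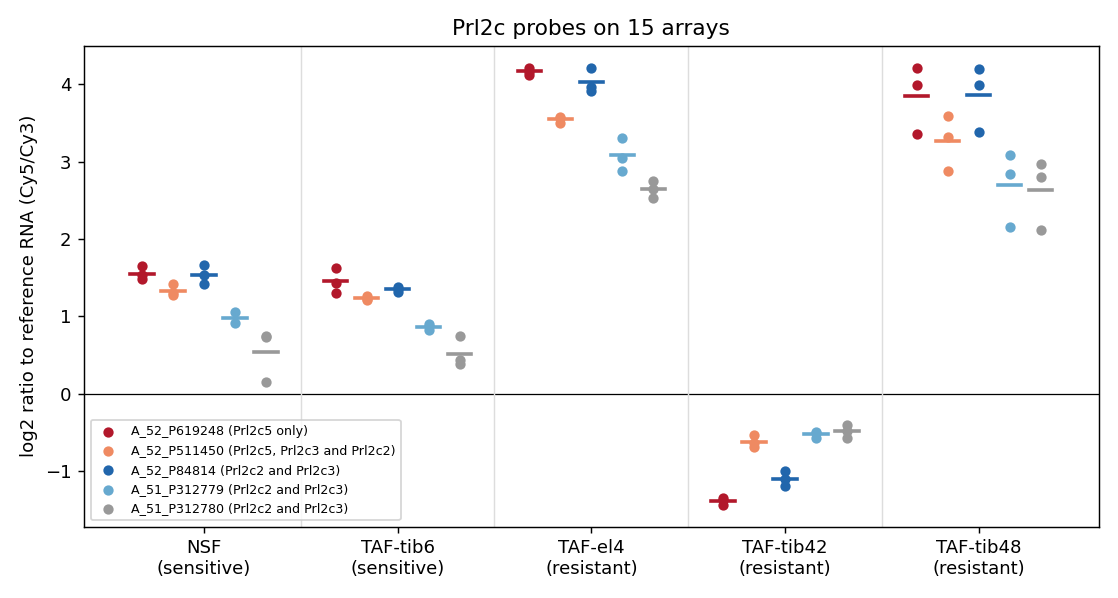
Log2 ratio of fibroblast RNA to reference RNA at each of the 5 Prl2c probes on the 15 arrays, by source; points are arrays, short lines are source means, and 1 NSF spot of A_51_P312779 is left out. TAF-el4 and TAF-tib48 lie between 2.12 and 4.22, NSF and TAF-tib6 between 0.15 and 1.67, and TAF-tib42 between -1.44 and -0.41.

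The order came from the fibroblast channel. Before normalisation, the Cy5 intensity of the Prl2c5 probe was 8848 to 15050 on the TAF-el4 arrays, 6284 to 16960 on those of TAF-tib48, 1196 to 2297 over NSF and TAF-tib6, and 153.9 to 183.6 in TAF-tib42. The Cy3 intensity of the same spots, which is the reference RNA, was 272 to 417.9 on all 15 arrays. Over the 5 probes, the normalised log2 level spanned 3.76 to 5.96 between source means in Cy5 and 0.58 to 0.81 in Cy3. The Cy3 level was thus not flat, but it moved less than Cy5 at every probe.

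**Figure D2:**
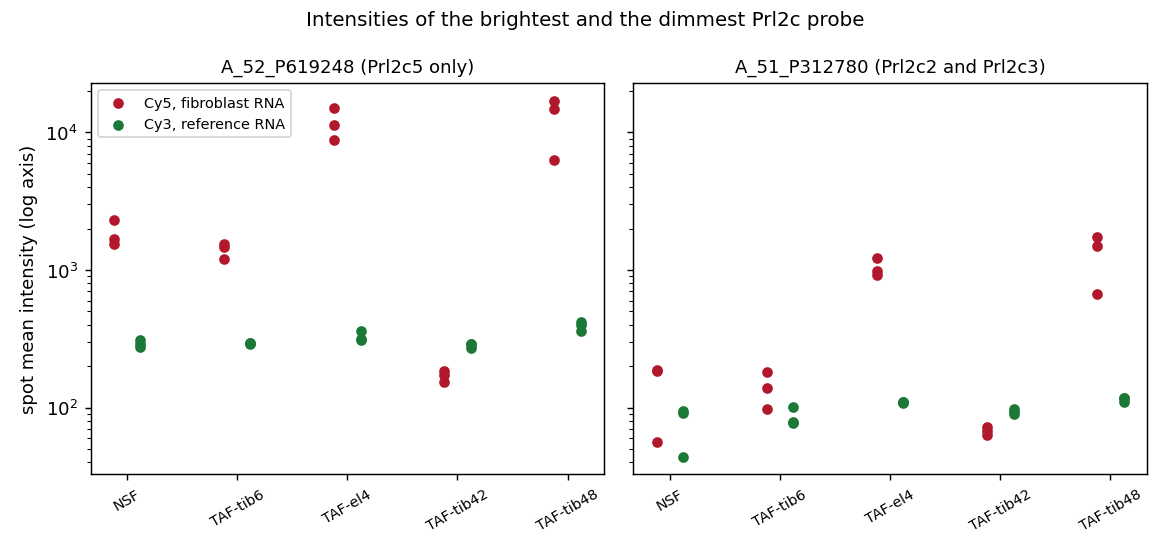
Spot mean intensity on a log axis for Cy5 (fibroblast RNA) and Cy3 (reference RNA) at the Prl2c5 probe A_52_P619248 and at A_51_P312780, 3 arrays per source. At the Prl2c5 probe Cy5 runs from 153.9 in TAF-tib42 to 16960 in TAF-tib48, and Cy3 stays between 272 and 417.9.

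In size, the span of the Prl2c5 probe between its highest and lowest source means was 5.55 on the log2 scale, rank 1 among the 38520 probes tested, whose median span was 0.16. A_52_P84814 followed at rank 3 with 5.14, A_52_P511450 at rank 8 with 4.17, A_51_P312779 at rank 19 with 3.61 and A_51_P312780 at rank 35 with 3.13. These ranks describe probes that were picked for their size. Over the arrays the 10 pairs of probes correlated at 0.9584 to 0.9976, with the same libraries and partly the same transcripts behind all 5.

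The comparisons that picked the genes had these sizes. TAF-el4 exceeded TAF-tib6 by 2.72 (SE 0.136, 6.57-fold) at the Prl2c5 probe and by 2.13 to 2.72 over the 5 probes. TAF-tib48 exceeded TAF-tib6 by 2.40 at the Prl2c5 probe and by 1.83 to 2.51 over all. Against NSF, TAF-el4 was higher by 2.10 to 2.61 and TAF-tib48 by 1.71 to 2.32. In all 4 of these comparisons the arrays of the 2 sources did not overlap at 5 of 5 probes; over all probes tested, the first source lay above without overlap at 20.2%, 18.8%, 16.3% and 19.7%, in that order.

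Slide numbers on the arrays fall into 3 runs of 5 consecutive numbers. Within the run that holds both sources, TAF-el4 was above NSF by 1.98 to 2.59 (2 arrays against 3, or against 2 at A_51_P312779). TAF-tib48 was above TAF-tib6 by 1.75 to 2.44 within another run (2 arrays against 3). Sources of the other 2 comparisons share no run. With slide run as a block, the mean difference over the probes was 2.34 for TAF-el4 and 2.11 for TAF-tib48 against TAF-tib6, and 2.25 and 2.02 against NSF. Of these, 2.11 and 2.25 restate the within-run differences. The values 2.34 and 2.02 join sources that share no run, through 1 array each of TAF-el4 and TAF-tib48. The block fit is thus no separate result.

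What the choice of genes did not use was the position of TAF-tib42, and there proliferin RNA was lower. In limma's fit with Benjamini-Hochberg adjustment over 38520 probes, all 5 probes fell in TAF-tib42 against TAF-tib6 and against NSF. The same was called, in that direction, for 12.6% of all probes against TAF-tib6 and for 13% against NSF. These comparisons share TAF-tib6 and NSF with those that picked the genes, and TAF-tib42 shares no slide run with either source.

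At the Prl2c5 probe, TAF-tib42 was below TAF-tib6 by 2.84, a difference of -2.84 with a 95% interval of -3.12 to -2.55, or 7.15-fold (limma adjusted p = 1.5e-11). Against NSF the difference was -2.94 (-3.23 to -2.65, 7.68-fold, limma adjusted p = 8.7e-12). All 3 TAF-tib42 arrays lay below all 6 arrays of NSF and TAF-tib6, as they did at the other 4 probes; over all probes tested, TAF-tib42 lay below without overlap at 18.5% against TAF-tib6 and 19.8% against NSF.

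The probe that lists all 3 genes, A_52_P511450, differed by -1.86 (-2.09 to -1.63) from TAF-tib6 and by -1.95 (-2.18 to -1.72) from NSF. A_52_P84814, for Prl2c3 and Prl2c2, differed by -2.45 (-2.74 to -2.17) and -2.64 (-2.93 to -2.36), and A_51_P312779 by -1.40 (-1.72 to -1.07) and -1.51 (-1.88 to -1.15). Their limma adjusted p-values lay between 4e-11 and 3.5e-06. Probes of the same genes differed in fold: against TAF-tib6 it was 2.63-fold at A_51_P312779 and 5.48-fold at A_52_P84814.

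A_51_P312780 was the weakest case. Its differences were -1.0 from TAF-tib6 (-1.36 to -0.64, limma adjusted p = 0.00022) and -1.03 from NSF (-1.39 to -0.67, limma adjusted p = 0.00018). As TAF-tib42 was not well above background there, the normalised Cy5 levels give TAF-tib6 at least 1.79-fold higher and NSF at least 1.75-fold higher, the latter with 2 of 3 NSF arrays above background. These bounds set a group's mean against the lowest signal that counted as well above background on each TAF-tib42 array. A fit of the Cy5 channel alone ended both calls (limma adjusted p = 0.058 and 0.087), while a fit of the authors' deposited table gave differences of -4.39 and -3.85.

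With slide run as a block, all 5 probes stayed lower and called against both sources, with the Prl2c5 probe at -3.04 from TAF-tib6 and -3.01 from NSF. TAF-tib42 shares no run with either source, so this fit links them only through arrays of TAF-el4 and TAF-tib48, which picked the genes. It thus gives no independent check on slide run.

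**Figure D3:**
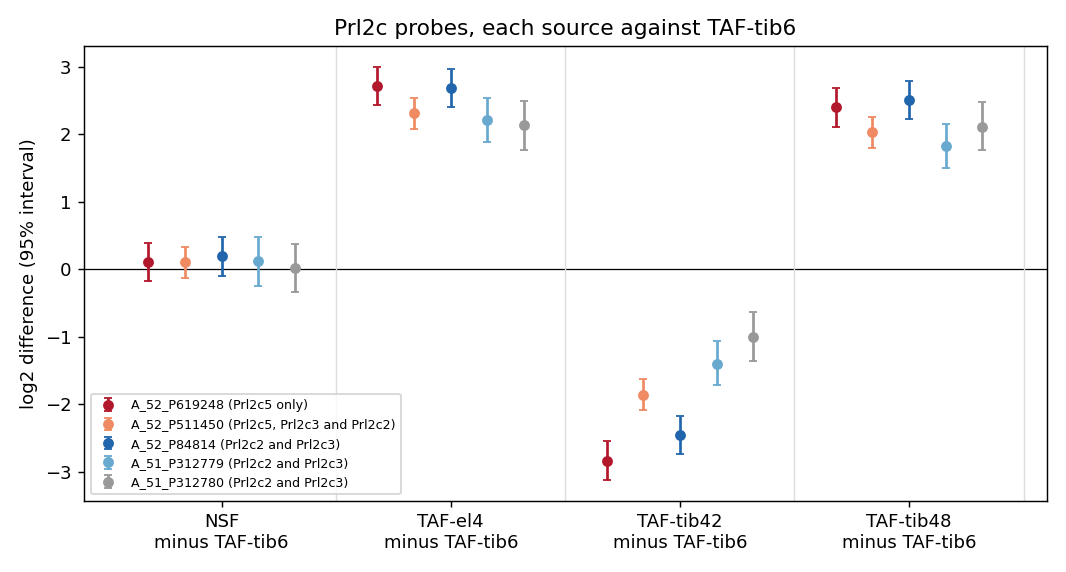
Log2 difference of NSF, TAF-el4, TAF-tib42 and TAF-tib48 from TAF-tib6 at the 5 Prl2c probes, with 95% intervals from the fit of all arrays. NSF lies within 0.19 of TAF-tib6, TAF-el4 and TAF-tib48 are 1.83 to 2.72 above it, and the differences of TAF-tib42 are -2.84 to -1.0.

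Set against the resistant pair, TAF-tib42 was lower still. TAF-el4 exceeded it by 5.55 (47-fold) at the Prl2c5 probe and TAF-tib48 by 5.24 (37.8-fold), and over the probes these differences were 3.13 to 5.55 and 3.12 to 5.24. At A_51_P312780, where TAF-tib42 was not well above background, the differences of the log2 ratios were 3.13 and 3.12 (8.76-fold and 8.68-fold). The normalised Cy5 levels alone, without division by Cy3, gave TAF-el4 at least 13-fold and TAF-tib48 at least 13.1-fold above TAF-tib42. These are bounds on the Cy5 scale and not on the differences of the log2 ratios. Within the slide run that holds all 3 sources, 1 array of TAF-el4 stood 3.24 to 5.60 above 3 of TAF-tib42, and 1 of TAF-tib48 stood 3.29 to 5.37 above them.

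NSF and TAF-tib6, the sensitive sources, had nearby proliferin levels. TAF-tib6 minus NSF was -0.10 at the Prl2c5 probe (-0.39 to 0.18) and -0.19 to -0.02 over the 5. No Prl2c probe was called (limma adjusted p from 0.42 to 0.96), and 11% of all probes were called. Arrays of the pair did not overlap at 3 probes, as at 30.6% of all probes. The intervals reached from -0.48 at A_51_P312779 to 0.34 at A_51_P312780, so differences up to 1.4-fold are within them. With slide run as a block the differences were -0.25 to 0.08, and the Prl2c5 probe was at 0.03. NSF and TAF-tib6 share no run, so that fit links them only through arrays of TAF-el4 and TAF-tib48.

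TAF-el4 and TAF-tib48, the high sources, were not separated by the test either. TAF-el4 minus TAF-tib48 was 0.32 at the Prl2c5 probe (0.03 to 0.60), 0.29 at A_52_P511450 (0.06 to 0.51), 0.18 at A_52_P84814 (-0.11 to 0.46), 0.39 at A_51_P312779 (0.06 to 0.72) and 0.01 at A_51_P312780 (-0.35 to 0.37). None was called (limma adjusted p from 0.068 to 0.97) against 23.6% of all probes. The intervals at A_52_P619248, A_52_P511450 and A_51_P312779 nevertheless lay wholly on the positive side. Arrays of the pair overlapped at all 5 probes, while they did not at 38.7% of all probes. TAF-tib48 had the widest spread of the sources, an SD of 0.362 to 0.482 per probe, and its replicate 3 was the lowest of its arrays at every probe. Without its replicate 2, the highest one, 3 probes were called higher in TAF-el4, A_52_P511450 by 0.45 (limma adjusted p = 0.00093). With slide run as a block the differences were -0.05 to 0.47. These are the differences between the 1 array of each source that share a run, so they are no separate result.

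By response, the resistant sources lay on both sides of the sensitive ones. TAF-el4 and TAF-tib48 were above, and TAF-tib42 below, both sensitive means at all 5 probes. The mean of the 3 resistant sources minus that of the 2 sensitive ones was 0.71 (SE 1.76) at the Prl2c5 probe, with resistant source means of SD 3.12, and 0.71 to 1.07 over the probes. In limma's fit of the 5 source means none of the 5 was called (adjusted p from 0.79 to 0.93), while 0.0026% of all probes, 1 in number, was called. None of the 5 had an unadjusted p under 0.05, which 3666 of the 38520 probes tested had. This contrast contains the sources whose values picked the genes, so its outcome is no independent result about them. Without TAF-tib42 the difference was 1.96 to 2.51 over the probes. That sets against each other only the sources whose values picked the genes, so it is given as a description only.

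The rest of the prolactin family is next, to show how far the Prl2c pattern extended. Of 27 listed genes, which include the hormones Prl and Gh and the receptors Prlr and Ghr, 24 had a probe named for them and 22 were tested. No probe was named for Prl2c1, Prl2c4 or Prl3d3. Whether the Prl2c probes that list NM_011954 also bind Prl2c4 was not settled here. Calls of tested genes over the 10 pairs of sources numbered 13, or 0 to 3 per pair, and 9 were Ghr, the growth hormone receptor. There were 6 calls with slide run as a block and 25 from the Cy5 channel alone. The share of list genes called was 0% to 13.6% per pair. Of all probes tested, 11% to 26.5% were called, with 23.1% for TAF-el4 minus TAF-tib42 and 14.2% for TAF-tib48 minus TAF-tib42.

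Among the placental members, Prl3b1, placental lactogen II, was lower in TAF-el4 than in TAF-tib42 by 0.18 (difference -0.18, limma adjusted p = 0.003). Prl6a1 was higher in TAF-el4 than in TAF-tib48 by 0.20 (limma adjusted p = 0.038). Prl7d1, proliferin-related protein, was higher in TAF-el4 than in TAF-tib6 by 0.15 (limma adjusted p = 0.012) and than in TAF-tib48 by 0.13 (limma adjusted p = 0.036), but its second probe was called in no pair. The second, dimmer probe of Prl2b1 was called in 1 pair. No other placental member's source means spanned more than 0.20 on the log2 scale at any probe, beside 3.13 to 5.55 for Prl2c. Several of these probes were dim, such as Prl3c1 at a Cy5 of 78.59 to 102.3 and Prl8a6 at 83.72 to 107.4, over a background of 52 to 56. Flat ratios at such levels do not show that the genes were unchanged. Brighter were Prl3b1, at 1118 to 2512, and Prl3d1, at 530.6 to 1112.

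The receptors differed. Prlr, the prolactin receptor, had source means of 0.11 to 0.17 and no call. Ghr had source means of -0.02 in NSF, 0.46 in TAF-tib6, -0.61 in TAF-el4, 0.31 in TAF-tib42 and 0.67 in TAF-tib48, so that it was low in one of the proliferin-high sources and highest in the other. All 3 of its probes were lowest in TAF-el4 and next lowest in NSF, but at the dimmest TAF-tib42 was highest (0.18 against 0.14 in TAF-tib48).

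**Figure D4:**
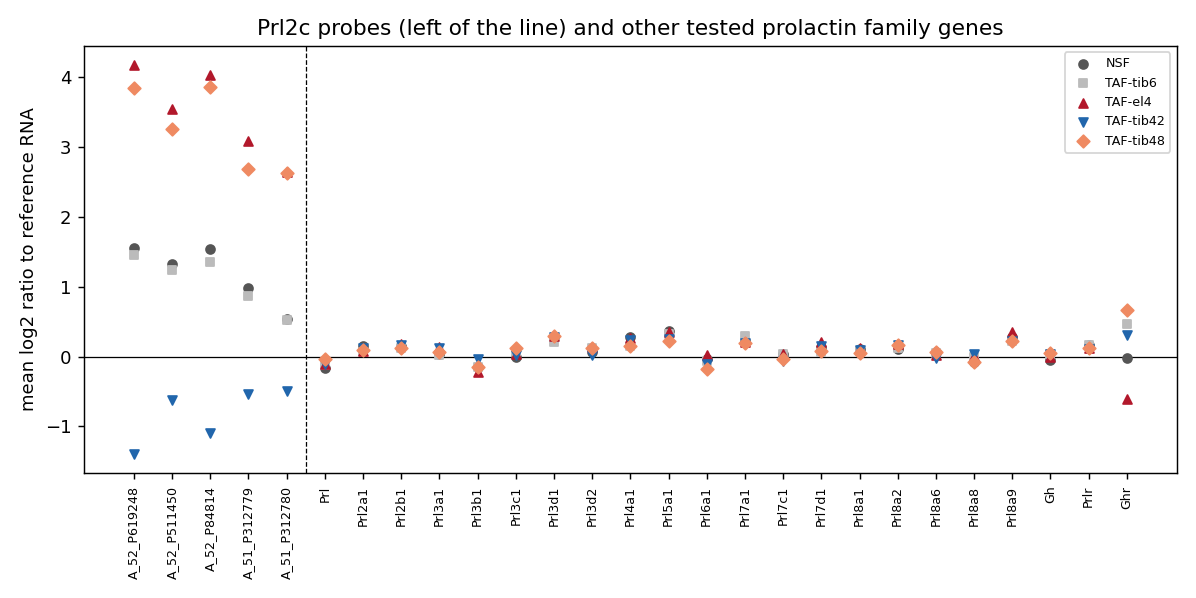
Mean log2 ratio of each of the 5 sources at the Prl2c probes, left of the dashed line, and at 22 tested prolactin family genes and receptors, 1 probe per gene. Source means of Prl2c spread over 3.13 to 5.55, those of Ghr over 1.28, and those of no other gene shown over more than 0.20.

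Of the 17 genes of known proliferin biology, all were tested. Against TAF-tib6, 4 were higher and 3 lower in TAF-el4, 2 and 6 in TAF-tib42, and 1 and 6 in TAF-tib48. Against NSF, the counts were 2 and 6 in TAF-el4, 0 and 7 in TAF-tib42, 1 and 7 in TAF-tib48, and 0 and 5 in TAF-tib6. That is 29.4% to 47.1% of the list, beside 20.6%, 24.8%, 24.8%, 17.4%, 24.2%, 26.5% and 11% of all probes in these 7 comparisons. Between the resistant sources, 8 were higher and 3 lower in TAF-el4 than in TAF-tib48 (64.7%, beside 23.6% of all probes), the pair in which no Prl2c probe was called. Against TAF-tib42, 5 were higher and 2 lower in TAF-el4 (41.2%, beside 23.1%), and 2 and 3 in TAF-tib48 (29.4%, beside 14.2%). The median difference of the list over the 10 pairs was -0.13 to 0.14, and that of all probes -0.006 to 0.006.

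The receptor Igf2r, which binds proliferin and carries lysosomal enzymes, was lower in all 3 resistant sources than in either sensitive one. Its log2 ratio was 1.09 ± 0.0217 in NSF and 1.23 ± 0.0853 in TAF-tib6, and 0.47 ± 0.0617 in TAF-el4, 0.37 ± 0.0462 in TAF-tib42 and 0.70 ± 0.083 in TAF-tib48 (SD, n = 3). It fell against TAF-tib6 by 0.76, 0.87 and 0.54 in that order, with limma adjusted p from 3.8e-10 to 3.1e-07, and against NSF by 0.62, 0.72 and 0.39. Its order was not that of Prl2c (r = -0.038 over 15 arrays), as TAF-el4 and TAF-tib48, highest in proliferin, lay below NSF and TAF-tib6. TAF-tib42 was lowest in both, although its Igf2r was not called against TAF-el4 (limma adjusted p = 0.18).

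Of the AP-1 factors, Fosl1, which encodes Fra-1, came nearest to the Prl2c order, with r = 0.745. Its log2 ratio was 0.03 in TAF-el4 against -0.73 in TAF-tib48, -0.87 in TAF-tib6, -1.01 in NSF and -1.04 in TAF-tib42. It rose in TAF-el4 against TAF-tib6 by 0.91 (limma adjusted p = 3.5e-08). TAF-tib48, close to TAF-el4 in proliferin, lay 0.14 above TAF-tib6 in Fosl1, which was not called (limma adjusted p = 0.16).

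Fos was -0.83 in NSF, -1.55 in TAF-el4, -2.06 in TAF-tib6, -3.02 in TAF-tib42 and -3.27 in TAF-tib48. It was thus lowest in one proliferin-high source, and TAF-el4 exceeded TAF-tib48 by 1.72 (limma adjusted p = 2.6e-09). Junb ran the same way, from 0.33 in NSF to -0.71 in TAF-tib48, and its second probe gave the same order; 1 NSF spot of the first was left out by its outlier flag. Fosb and the glucocorticoid receptor Nr3c1 were called in no pair.

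Among growth factor receptors, Egfr fell from 1.5 in NSF to -0.51 in TAF-tib48 at its brightest probe, a difference of -2.01 (limma adjusted p = 1.1e-10), whereas its other 3 probes spanned 0.27 to 0.54. Tgfbr2, the type II receptor of TGF-beta, was 1.46 in TAF-tib6, 0.27 in TAF-tib42 and 0.17 in TAF-tib48, and fell by 1.19 and 1.29 against TAF-tib6 (limma adjusted p = 6.1e-08 and 2.5e-08); its second, dimmer probe spanned 0.17. Fgf2, Fgfr1 and Pdgfb were called in no pair.

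Genes whose pattern over the arrays was most like the mean of the Prl2c probes were sought among 503 genes with source means at least 1 apart. Pearson's r over the 15 arrays exceeded 0.9 for 10 of them and was below -0.9 for 18, with a median of 0.014. These points share 5 sources and 1 reference RNA, and r is given as a description of likeness.

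Slk, a STE20-like kinase, was the most alike at r = 0.98, with source means of 0.13 in TAF-tib48, -0.01 in TAF-el4, -0.47 in TAF-tib6, -0.52 in NSF and -1.03 in TAF-tib42; its second, dimmer probe gave r = 0.799. Cct7, a chaperonin subunit, followed at 0.961, and Slc2a5, the fructose transporter, at 0.957. Procr, the protein C receptor, and Ccnd1, cyclin D1 of the G1 phase, both reached 0.948, and Gsta4, a glutathione transferase, 0.936. Their source means spanned 1.03 to 1.44, less than those of any Prl2c probe.

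Ccnd1 was 0.21 in TAF-el4 and 0.30 in TAF-tib48, against -0.48 in NSF, -0.88 in TAF-tib6 and -1.05 in TAF-tib42. Most opposed were Gas5, a host transcript of small nucleolar RNAs, at r = -0.978, the scramblase Plscr2 at -0.964 (-0.896 at its second probe) and Camp, cathelicidin, at -0.961. Gas5 stood at 1.22 in TAF-tib42 and 0.04 in TAF-el4.

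**Figure D5:**
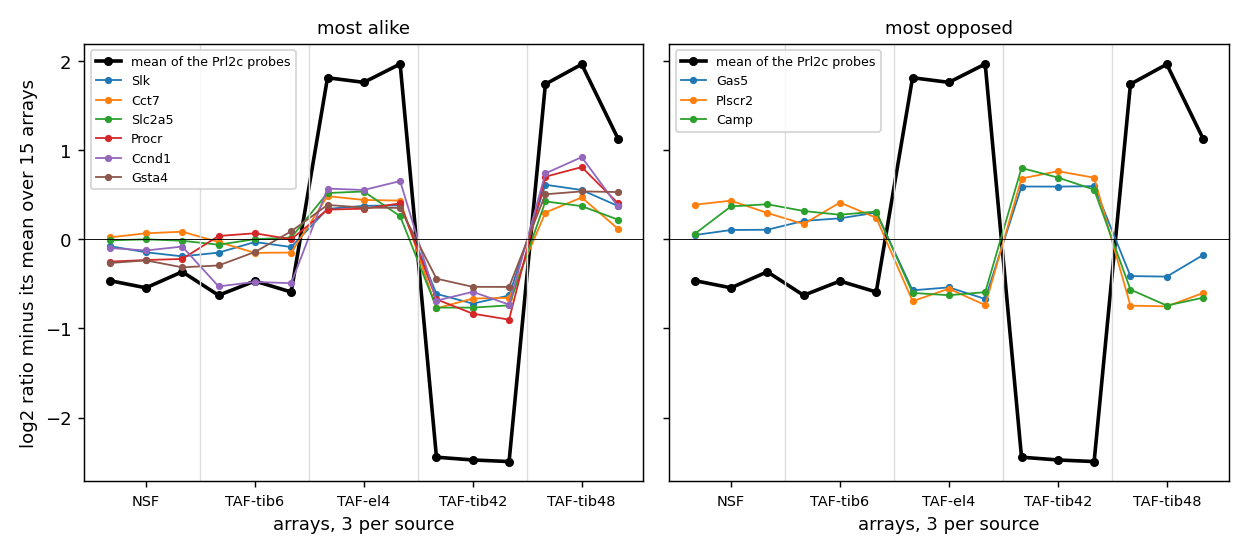
Log2 ratio minus its mean over 15 arrays, by array and source, for the mean of the Prl2c probes (black) and for the 6 most alike genes (left) and the 3 most opposed (right). The lines of the alike genes dip in TAF-tib42 and those of the opposed genes peak there, with r of 0.936 to 0.98 and -0.961 to -0.978.

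The labelled cell type was checked by markers. All 10 fibroblast markers, such as Col1a1 and Vim, were well above background on all 15 arrays, and 9 had a median Cy5 intensity above 1000. Of 10 markers of trophoblast and placenta, where proliferin is best known, 2 of which, Prl3b1 and Prl3d1, are also in the family list, 7 were well above background on all arrays by a flag that 89.6% to 95.8% of probes carried, and only Prl3b1 had a median above 1000. Their summed Cy5 intensity over background was 2752 to 4043 in TAF-el4 and 2897 to 5165 in TAF-tib48, against 2911 to 4456 in NSF, 2829 to 3250 in TAF-tib6 and 2989 to 3844 in TAF-tib42, ranges that overlap. The trophoblast marker Tpbpa lay between 92.26 and 196.4 in Cy5 and its source means between 0.03 and 0.12. By the same flag, 6 of 7 T lymphocyte and lymphoma markers were well above background on all arrays. So were 6 of 6 macrophage markers and 3 of 4 keratinocyte and epithelial markers. In these lists only Cd3e, at 2084, and Krt5, at 1054, had a median Cy5 intensity above 1000.

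The 5 endothelial markers summed to 1378 to 2489 in TAF-tib48 and to 533 to 964 in the other sources, with Emcn at a log2 ratio of 2.04 in TAF-tib48 and at most 0.26 elsewhere. Cdh5 was 0.74 there against 0.01 to 0.26 and Tek 0.57 against 0.11 to 0.40, whereas Kdr was 0.18 against 0.17 to 0.19 and Pecam1 -0.03 against -0.18 to -0.07. In TAF-el4, where the proliferin log2 ratio averaged 3.49 against 3.26 in TAF-tib48, the endothelial sum was 549 to 692. The median Cy5 intensity per array was 173.4 to 283.1 over a background of 52 to 56, and log2 ratios correlated at 0.9595 to 0.9873 within sources and at 0.8401 to 0.9484 between them.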

How the data were processed

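Per the file headers, the deposited scanner files hold spot intensities of both dyes and a log10 ratio (Cy5 over Cy3) that the scanner software normalised by LOWESS, made with Agilent Feature Extraction 8.5.1.1 (per the submitters' processing notes; a protocol label names 9.5). The authors' deposited table holds log2 ratios; each column followed the scanner's ratio with slope 1, medians lay between 0.0337 and 0.0511, and empty cells numbered 619 to 1075. Control and outlier spots were left out after background correction (normexp, offset 50) and loess within arrays in limma 3.58.1 (R 4.3.3). A probe was tested if its Cy5 was well above background on all 3 arrays of a source. One limma fit (lmFit, eBayes) with a mean per source covered 15 arrays, another the 5 source means; tests were two-sided, with calls at a Benjamini-Hochberg adjusted p under 0.05. Genes with several probes were represented by the brightest. Probes were named by accession (22072), description (1562), gene name (75) or the file's own name (17465) against a RefSeq table of GRCm38.p6, whose coordinates were not used. The steps were tested on simulated data. Members, lists and tests were chosen with earlier results of these data known. Named were all member probes, prolactin family genes called in any pair, the 6 pathway genes with the largest called differences, and the 6 most alike and 3 most opposed genes, passing over clone, RIKEN and predicted names. The alternatives tried were background, normalisation, values, filter, arrays, blocks and probe choice. Deviations of same-numbered arrays correlated at r of -0.19 to 0.16, which does not settle whether the numbers pair the samples.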

Additional observations from a re-analysis of the deposited data

How the results depend on the processing

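Of 322 values of the 11 main results under 34 alternatives, 299 were counted as unchanged. These results are mean differences and counts of calls, not single probes. A mean difference was unchanged if it kept its sign and moved by less than 0.207, the SD between arrays of a source. A count could shift by a limited ratio. Thus 4 calls with Cy5 alone, in place of 5, for TAF-tib42 against each sensitive source counted as unchanged. So did 51 calls of the proliferin biology list with slide run as a block, in place of 73. The mean difference of the Prl2c probes was 2.41 for TAF-el4 minus TAF-tib6, and 2.62 with median centring, 2.75 from Cy5 alone and 2.70 with 1 probe per gene. For TAF-tib48 minus TAF-tib6 it was 2.17, and 2.74 from Cy5 alone, 2.45 with 1 probe per gene and 2.0 to 2.42 when arrays were left out, the highest without TAF-tib48 replicate 3. TAF-el4 minus NSF was 2.31, and 2.63 from Cy5 alone and 2.55 with 1 probe per gene. TAF-tib48 minus NSF was 2.07, and 2.28 with scaled log ratios, 2.62 from Cy5 alone, 2.31 with 1 probe per gene and 1.84 to 2.36 when arrays were left out. With 1 probe per gene, 2 of 2 probes were called for TAF-tib42 against TAF-tib6 and against NSF, in place of 5 of 5. Calls of TAF-el4 against TAF-tib48 ran from 0 to 3 when arrays were left out, with 3 without replicate 2 of TAF-tib48 or of every source. For resistant minus sensitive sources, the count also changed without TAF-tib42. It is not read as a result, because only the sources that picked the genes are left there. Calls of the prolactin family list over all pairs went from 13 to 25 with Cy5 alone, to 6 with slide run as a block, and to 8 to 16 when arrays were left out; for each of these changes the cause was not tested.

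Differences that were not called and changed sign were as follows. TAF-tib6 minus NSF became 0.03 at A_52_P619248 with slide run as a block, and at A_51_P312780 0.22 with median centring, 1.07 with the scanner's log ratios, 0.54 in the authors' table, 0.03 from Cy5 alone, 0.08 with slide run as a block and -0.33 to 0.14 when arrays were left out. TAF-el4 minus TAF-tib48 became -0.08 at A_52_P511450 from Cy5 alone, and -0.05 at A_52_P84814 with scaled log ratios and -0.15 to 0.38 when arrays were left out. At A_51_P312780 it became -0.05 without background subtraction and with slide run as a block, -0.14 with scaled log ratios, -0.01 from Cy5 alone and -0.30 to 0.24 when arrays were left out. Resistant minus sensitive became -0.27 at A_52_P619248 without TAF-el4 and -0.11 without TAF-tib48, -0.07 at A_52_P84814 without TAF-el4, and -0.15 at A_51_P312780 in the authors' table.

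Whether the replicate numbers pair the samples is not known. With the replicate number as a block, 5 probes were again called in TAF-tib42 against both sensitive sources, 0 in the other 2 tested pairs, and 14 calls fell in the prolactin family list, so the replicate block changed no call of a Prl2c probe. Keeping the spot with the outlier flag, an alternative chosen after seeing the data, changed no call either. The dim probe A_51_P312780, near background in TAF-tib42, is the least certain of the 5.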
